A study of Mus musculus with 13 samples.

Results

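Mitosis and cytokinesis genes were followed in cultured damaged hepatocytes (dHeps). The group holds 37 genes, chosen by symbol for their known role in cell division, out of 27141 genes in the count table. The rule used gene names and no expression value, but the members were chosen with earlier results of these data known. All 37 were found in the table and passed the filter on low counts that 19884 genes passed.

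dHeps are hepatocytes isolated from wild-type (WT) mice whose livers had been injured with carbon tetrachloride (CCl4). All cells were kept for 16 days in serum-free Hepatocyte Maintenance Medium, and total RNA was sequenced in 13 libraries of 7 groups. Control cells received the solvent DMSO. The 5C group received 5 compounds together. GSK429286A (G) inhibits ROCK, CID755673 (C) inhibits protein kinase D, ETC-1002 (E) activates AMPK, forskolin (F) activates adenylate cyclase, and Salidroside (S) is a plant glycoside. In 5C-G, 5C-C, 5C-E, 5C-F and 5C-S the cocktail lacked the named compound, so these comparisons ask what each compound contributes to the effect of the whole. There were 2 libraries per group, called A and B in the order of the table, except for 5C-S with 1 library. The labels give no age and do not say whether the libraries of a group came from separate animals or cultures. The study states in general that n counts separate biological replicates, without saying how these libraries were separated. The p-values therefore measure only the spread between these libraries, and the labels do not tell whether it is technical.

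In a dividing cell, cyclin-dependent kinase 1 (CDK1) with its cyclins starts mitosis, the kinetochores attach chromosomes to the spindle, and the spindle checkpoint holds back the anaphase-promoting ubiquitin ligase until every chromosome is attached. Separase then cuts the rings that hold sister chromatids, and the central spindle and contractile ring split the cell. Most of these genes are transcribed only late in the cell cycle: MuvB complexes bind the cell cycle homology region (CHR) of their promoters, repress them in resting cells, and activate them together with B-MYB and FOXM1 in G2. Adult hepatocytes are mostly quiescent but can re-enter the cycle after liver injury, and some skip cytokinesis and become polyploid.

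Promoters are printed here because the CHR named above can be looked for in them. Only this element and the CCAAT box were searched. The members were chosen for a role in cell division, for which the CHR is known, so its share is not independent of their choice. RefSeq promoter windows (250 bases before to 50 bases after the transcription start, build GRCm38.p6) were at hand for 31 of the 37 genes. The CHR was searched as TTTGAA or TTCGAA on both strands, and the CCAAT box as CCAAT on both strands. A CHR was found in 24 of 31 genes (77.4%), against 21.7% of 27025 genes and 19.2% of 32851 windows over the genome. CCAAT was found in 23 of 31 genes (74.2%), against 41.1% of all genes, and both motifs together in 21 of 31 (67.7%), against 8.61% of all genes. The CCAAT box was also common in the other gene lists of the cell cycle given below, so it did not set the members apart from them. In the 24 genes, the CHR closest to the start lay between base -103 and base 41, with a median position of 5.5, where base -1 is the last before the start. Shown are stretches of up to 200 bases before the start that held a CHR outside every exon of the GENCODE annotation, found in 5 members. They run 5′ to 3′ on the strand of the gene. Only in Kif2c is the printed CHR the one closest to the start. In Cdk1, Ccnb2, Bub1b and Top2a the closest CHR lay at base -15, 5, 41 and -23, outside the printed stretch. Capitals mark both motifs (TTTGAA and TTCGAA with the reverse TTCAAA for the CHR, and CCAAT with the reverse ATTGG for the CCAAT box). An exact match placed them in GRCm39 at chr10:69188773-69188972 for Cdk1, chr9:70328875-70329074 for Ccnb2, chr4:117035970-117036169 for Kif2c and chr11:98915063-98915262 for Top2a on the minus strand, and at chr2:118428484-118428683 for Bub1b on the plus strand. The stretches of Cdk1 and Kif2c lie in introns of longer GENCODE transcripts of the same genes, and the others lie upstream of the annotated gene.
Cdk1: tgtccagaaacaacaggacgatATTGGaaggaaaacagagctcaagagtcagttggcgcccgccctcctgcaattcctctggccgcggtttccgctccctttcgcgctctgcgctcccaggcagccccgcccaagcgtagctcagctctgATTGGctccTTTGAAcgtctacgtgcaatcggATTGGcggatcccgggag
Ccnb2: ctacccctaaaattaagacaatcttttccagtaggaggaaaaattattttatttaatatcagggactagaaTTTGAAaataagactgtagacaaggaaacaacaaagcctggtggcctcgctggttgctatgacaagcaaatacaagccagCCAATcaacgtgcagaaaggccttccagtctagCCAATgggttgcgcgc
Kif2c: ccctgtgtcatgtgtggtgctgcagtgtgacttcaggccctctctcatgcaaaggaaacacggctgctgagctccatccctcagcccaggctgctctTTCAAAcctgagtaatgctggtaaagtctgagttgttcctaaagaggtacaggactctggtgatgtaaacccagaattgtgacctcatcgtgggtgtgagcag
Top2a: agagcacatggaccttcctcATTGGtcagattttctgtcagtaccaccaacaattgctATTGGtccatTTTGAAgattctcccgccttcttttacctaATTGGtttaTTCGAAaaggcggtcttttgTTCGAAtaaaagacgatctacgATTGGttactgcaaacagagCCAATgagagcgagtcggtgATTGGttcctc
Bub1b: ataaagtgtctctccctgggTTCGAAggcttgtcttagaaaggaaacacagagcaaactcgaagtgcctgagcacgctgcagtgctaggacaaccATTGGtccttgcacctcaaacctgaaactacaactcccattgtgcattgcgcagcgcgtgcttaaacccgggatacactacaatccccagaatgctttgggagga
The stretch of Top2a held 3 CHR and 6 CCAAT matches, whereas that of Kif2c held 1 CHR, starting at base -103, and 0 CCAAT. A match describes the letters only. It marks neither a bound site nor a cause of the values below, and a window without a match only lacks these letters.

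**Figure D1:**
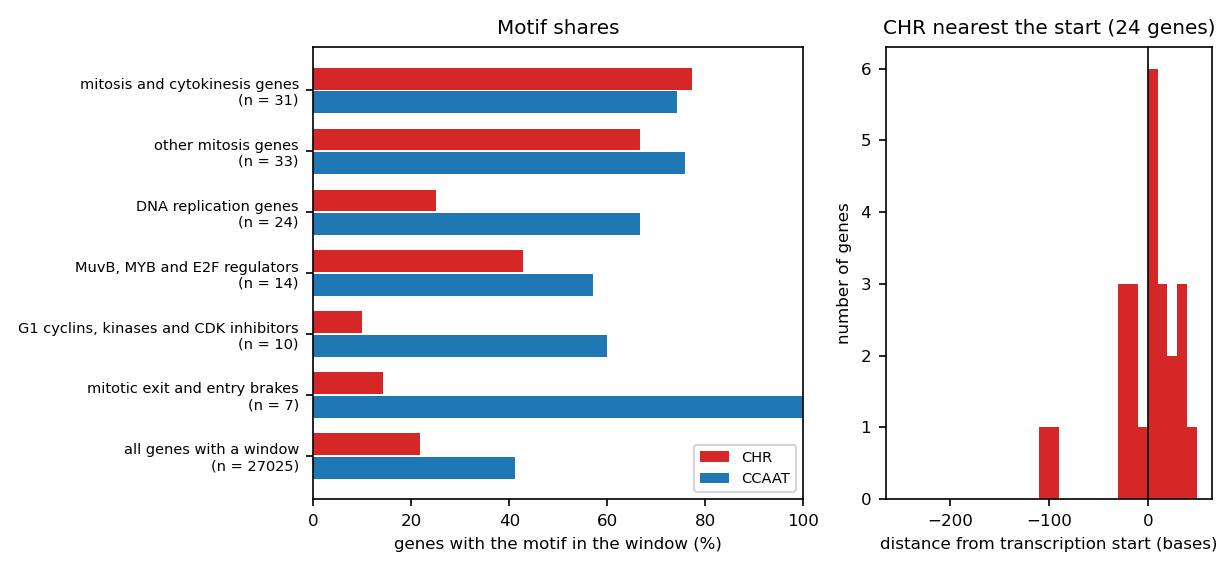
Left, percentage of genes with a CHR (red) or CCAAT (blue) match in the RefSeq promoter window, for each gene list and for all genes with a window. Right, distance in bases from the transcription start to the nearest CHR in the 24 mitosis and cytokinesis genes that had one, of which 22 lay within 50 bases of the start.

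Total counts per library ran from 30195867 to 45491932. The lowest count of any member in any library was 22, for Cdc25c, so no member lay at the floor of 3 counts. Hepatocyte markers summed to between 6350 and 28500 FPKM (fragments per kilobase of gene, scaled for sequencing depth) over 10 genes. Markers of other liver cells were present too. Mesothelial markers (4 of 4 detected) summed to between 371 and 735 FPKM, cholangiocyte markers (6 of 6) to between 1460 and 3420, and stellate cell and fibroblast markers (10 of 10) to between 786 and 2070. Endothelial markers (8 found of 9 listed) reached 89.8 FPKM at most, with Pecam1 and Cdh5 at 0 counts in all libraries of 5C and 5C-F. Lymphocyte markers (3 found of 6 listed) were nearly absent. They summed to 0.269 FPKM at most, and all 3 (Cd3e, Cd79a and Ms4a1) were at 0 counts in both 5C libraries. Macrophage markers are given below beside the result.

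Removing the protein kinase D inhibitor raised nearly the whole group. In 5C-C against 5C, 32 of 37 members were called higher and 0 lower, where a call meant an adjusted p under 0.05 in edgeR's quasi-likelihood test together with a log2 fold change beyond 1. The background over the 19884 genes was 9.65% higher and 10.5% lower. The median log2 fold change of the members was 1.65, beside 0.00 over all genes. Removing the ROCK inhibitor raised 16 of 37 members and lowered 0 in 5C-G against 5C (7.47% and 5.64% of all genes), with a median of 0.89 and a positive log2 fold change in all 37. Removing the AMPK activator raised 12 of 37 and lowered 0 in 5C-E against 5C (0.654% and 1.31% of all genes), with a median of 1.05 and a positive value in 35. Removing forskolin gave 0 calls among the 37 in 5C-F against 5C (2.69% of all genes higher and 2.15% lower), with a median of 0.06 and 9 members at an unadjusted p under 0.05. DESeq2 and limma likewise gave 0 calls there.

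Between the whole cocktail and the solvent few members were called. In 5C against DMSO, 0 of 37 members were called higher and 1 lower (1.66% and 2.89% of all genes), and the median log2 fold change was -0.09. The called gene was Espl1, described below. Short of a call, Ccnb2 was higher at 0.835 ± 0.232 (SE), adjusted p = 0.039. Mki67 was lower at -0.624 ± 0.236 (SE), adjusted p = 0.16.

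By library, the median over the 37 members of the log2 normalised count relative to the DMSO mean was 0.01 and -0.01 in DMSO, -0.09 and -0.11 in 5C, and -0.11 and 0.14 in 5C-F. It was 0.44 in the 5C-S library, 0.72 and 0.79 in 5C-G, 0.83 and 0.96 in 5C-E, and 1.65 and 1.66 in 5C-C. The 5C-C libraries thus stood above all others, 5C-G and 5C-E lay together in the middle, and 5C-F overlapped DMSO and 5C. Summed over the members, FPKM was 63.9 ± 0.155 (SD, n = 2) with DMSO, 67.7 ± 1.79 with 5C, 126 ± 2.17 with 5C-G, 192 ± 21.3 with 5C-C, 120 ± 7.20 with 5C-E and 70.0 ± 5.57 with 5C-F, against 95.3 in the 5C-S library. Among the 6 groups with 2 libraries, 30 of 37 members had their highest mean in 5C-C, 4 in 5C-E, and 1 each in DMSO, 5C-G and 5C-F. The lowest mean was in 5C for 15 members, in DMSO for 11, in 5C-F for 10 and in 5C-E for 1.

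**Figure D2:**
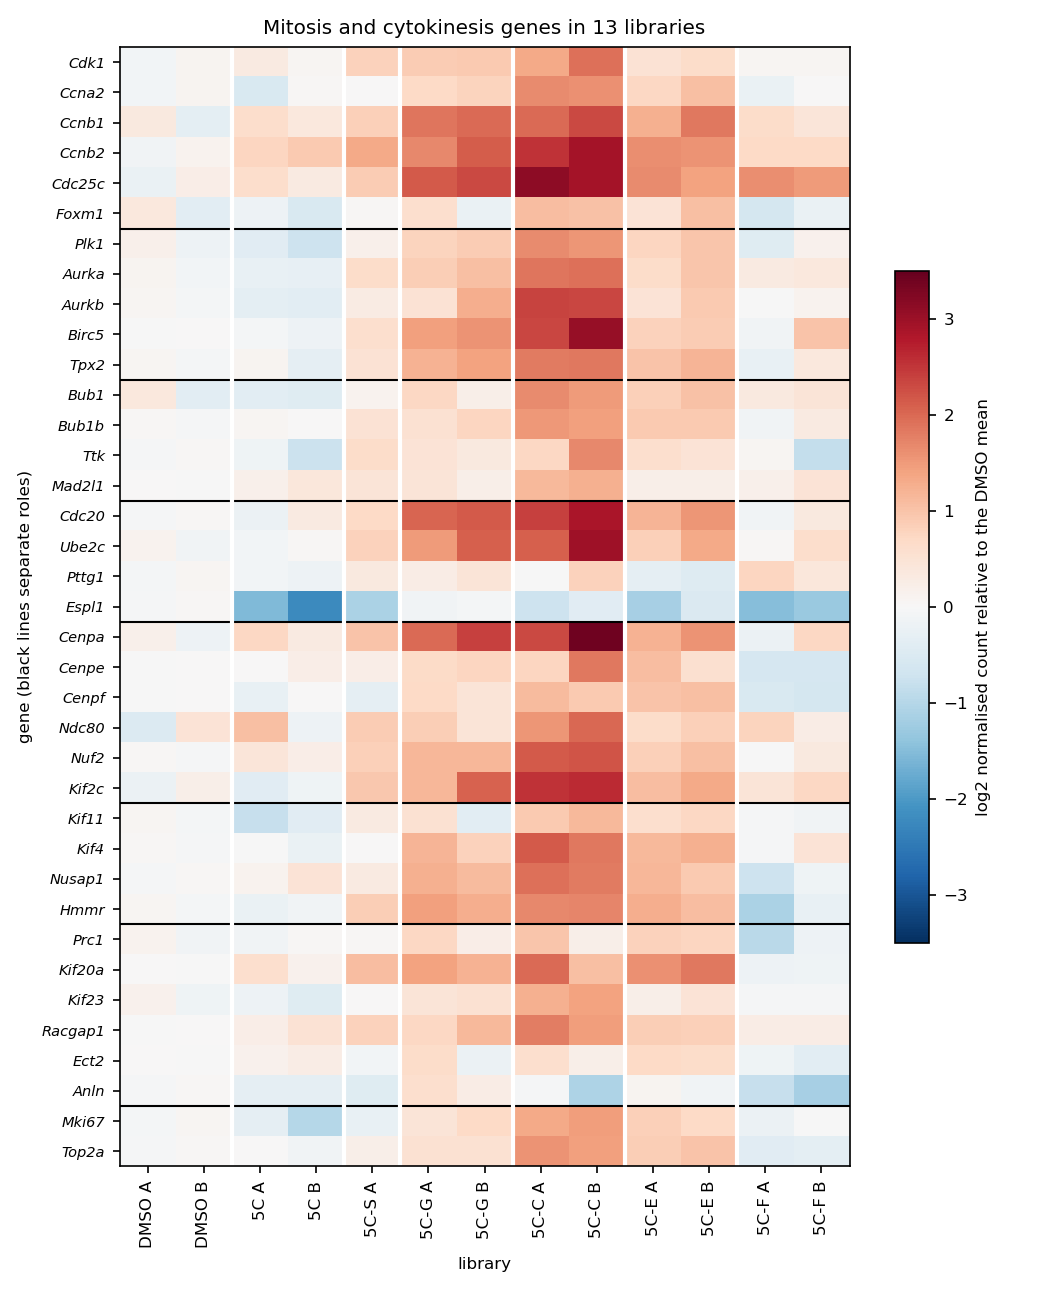
Colour gives the log2 normalised count of each of the 37 genes (rows, grouped by role) in each of the 13 libraries (columns), relative to the mean of the 2 DMSO libraries. Both 5C-C libraries are red for most genes, 5C-G and 5C-E are paler, and Espl1 is blue in 5C and 5C-F.

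Markers of other cells moved between the same groups. Macrophage markers (9 of 9 detected) summed to 1540 and 1500 FPKM with DMSO, 172 and 167 with 5C, 233 with 5C-S, 1830 and 2860 with 5C-G, 431 and 730 with 5C-C, 264 and 334 with 5C-E, and 506 and 733 with 5C-F, while the Kupffer cell genes Clec4f and Timd4 were at 0 counts in the 5C-S library. Both libraries of 5C-G, 5C-C and 5C-E, and likewise of 5C-F and DMSO, lay above those of 5C in macrophage markers. Hepatocyte markers summed to 16100 FPKM in both 5C libraries, 10800 and 9480 in 5C-C, 9620 and 11100 in 5C-G, 7220 and 6350 in 5C-E, and 28500 and 23600 in 5C-F, so they were lower in each group in which the mitosis genes were higher than in 5C. Stellate cell and fibroblast markers summed to 1230 FPKM in both 5C libraries, 1680 and 2070 in 5C-G, and 1150 and 977 in 5C-C. Endothelial markers were at 14.1 and 12.7 in 5C, 41.7 and 45.4 in 5C-G, and 15.9 and 9.76 in 5C-C. Mesothelial markers were at 469 and 505 in 5C, 695 and 735 in 5C-G, and 441 and 427 in 5C-C. Of these lists, only the endothelial one lay above 5C in both 5C-E libraries (28.7 and 27.4). The part of these markers in the result was not tested, and in these bulk libraries more dividing cells and more mitotic RNA per dividing cell cannot be told apart.

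When 1 library was left out, its group was down to 1 library, which was assumed to vary like the other groups, whose spread the fit then used. For 5C-C, between 28 and 31 members were called in these 4 fits, and 25 of the 32 kept their call in each. For 5C-E the calls depended on single libraries, and no member kept its call in each fit, although the median stayed between 0.87 and 1.08. For 5C-G, between 12 and 16 members were called, the fewest without 5C B, and 10 of the 16 kept their call in each fit.

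CDK1 and its activators rose without the protein kinase D inhibitor, with all 6 called in 5C-C, 3 in 5C-G and 2 in 5C-E. Cdk1, the kinase that drives entry into mitosis, was measured at 3.99 and 4.53 with DMSO, 5.62 and 4.64 with 5C, 7.86 with 5C-S, 8.01 and 7.16 with 5C-G, 10.3 and 14.9 with 5C-C, 6.64 and 7.37 with 5C-E, and 4.22 and 4.52 with 5C-F (FPKM). The 5C-C libraries were the highest and did not overlap those of any other group. Its log2 fold change in 5C-C against 5C was 1.47 ± 0.21 (SE), adjusted p = 8.9e-05, whereas in 5C-G against 5C it was 0.70 ± 0.21 (adjusted p = 0.019), short of the fold required for a call.

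Ccna2 encodes cyclin A2, which partners CDK1 and CDK2 from S phase to early mitosis. Its FPKM was 1.59 and 1.78 with DMSO, 1.23 and 1.79 with 5C, 1.80 with 5C-S, 2.76 and 2.61 with 5C-G, 5.10 and 4.67 with 5C-C, 3.09 and 3.85 with 5C-E, and 1.35 and 1.73 with 5C-F. All 6 libraries of 5C-G, 5C-C and 5C-E lay above both 5C libraries, and the log2 fold change was 1.85 ± 0.26 (SE), adjusted p = 9.4e-05 in 5C-C and 1.13 ± 0.26 (SE), adjusted p = 0.025 in 5C-E, the latter lost without 5C A (0.86) or 5C-E B (0.96). Ccnb1, the B-type cyclin that forms the mitotic kinase with CDK1, was at 1.47 and 0.928 with DMSO, 1.91 and 1.57 with 5C, 2.19 with 5C-S, 4.34 and 4.13 with 5C-G, 4.41 and 5.30 with 5C-C, 3.06 and 4.66 with 5C-E, and 1.73 and 1.59 with 5C-F FPKM. Here the 5C-E libraries spanned those of 5C-G and overlapped 5C-C, while all 3 groups stood above 5C, with log2 fold changes of 1.42 ± 0.28 (SE), adjusted p = 0.0016 in 5C-G and 1.65 ± 0.28 (SE), adjusted p = 0.00031 in 5C-C. The related Ccnb2 was at 3.44 and 4.13 with DMSO, 6.79 and 7.42 with 5C, 10.1 with 5C-S, 12.5 and 14.7 with 5C-G, 20.9 and 26.0 with 5C-C, 12.9 and 12.3 with 5C-E, and 5.85 and 6.17 with 5C-F FPKM. Both DMSO libraries were the lowest and both 5C-C libraries the highest. It showed the highest log2 fold change of any member in 5C against DMSO, at 0.83 ± 0.23 (SE), adjusted p = 0.039, which passed the p threshold but not the fold. Cdc25c, a phosphatase that removes the inhibitory phosphates from CDK1, was the scarcest of this set per length, at 0.122 and 0.170 with DMSO, 0.236 and 0.185 with 5C, 0.286 with 5C-S, 0.663 and 0.651 with 5C-G, 1.22 and 1.01 with 5C-C, 0.502 and 0.423 with 5C-E, and 0.430 and 0.416 with 5C-F FPKM. DMSO and 5C were the lowest and 5C-C the highest, without overlap. It rose by a log2 fold change of 2.56 ± 0.43 (SE), adjusted p = 0.00028 in 5C-C against 5C.

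Foxm1, the forkhead factor that activates G2 and M genes, rose less clearly. Its FPKM was 1.24 and 0.742 with DMSO, 0.911 and 0.684 with 5C, 1.05 with 5C-S, 1.47 and 0.733 with 5C-G, 1.94 and 1.78 with 5C-C, 1.48 and 2.19 with 5C-E, and 0.593 and 0.823 with 5C-F. The 5C-E libraries overlapped those of 5C-C, and the 5C-G libraries were far apart, with 5C-G B inside the range of 5C. The log2 fold change in 5C-C against 5C was 1.39 ± 0.35 (SE), adjusted p = 0.0054, and without 5C B the call was lost at 1.24.

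All 5 genes of the mitotic kinase group were called in both 5C-C and 5C-G, and 3 in 5C-E. Plk1, the polo-like kinase of spindle assembly and mitotic exit, was at 2.30 and 1.76 with DMSO, 1.63 and 1.26 with 5C, 2.42 with 5C-S, 3.56 and 3.35 with 5C-G, 6.10 and 5.43 with 5C-C, 3.72 and 4.34 with 5C-E, and 1.42 and 2.25 with 5C-F FPKM. Both 5C libraries were the lowest apart from 5C-F A, and 5C-C was the highest, with a log2 fold change of 2.16 ± 0.31 (SE), adjusted p = 9.2e-05 in 5C-C and 1.40 ± 0.30 (SE), adjusted p = 0.003 in 5C-G. Without 5C B the 5C-G call was lost, at 1.19.

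Aurkb, the kinase that corrects faulty attachments and works in cytokinesis, was at 1.35 and 1.23 with DMSO, 1.09 and 1.04 with 5C, 1.68 with 5C-S, 1.88 and 2.81 with 5C-G, 6.35 and 5.97 with 5C-C, 1.99 and 2.71 with 5C-E, and 1.23 and 1.42 with 5C-F FPKM. The 5C-C libraries stood far above all others, and the log2 fold change in 5C-C was 2.69 ± 0.32 (SE), adjusted p = 2.4e-05. In 5C-G it was 1.29 ± 0.31 (SE), adjusted p = 0.0056, a call lost without 5C B (1.22) or 5C-G B (0.86). Birc5 encodes survivin, the partner that brings Aurora B to the centromere. Its FPKM was 0.996 and 1.01 with DMSO, 1.02 and 0.919 with 5C, 1.62 with 5C-S, 2.77 and 2.69 with 5C-G, 4.86 and 7.61 with 5C-C, 1.95 and 2.04 with 5C-E, and 0.881 and 2.04 with 5C-F. 5C-C again stood clear of the rest, whereas the 5C-F libraries differed from each other, A lying at the level of 5C and B at that of 5C-E. Birc5 had a log2 fold change of 2.85 ± 0.36 (SE), adjusted p = 3.9e-05 in 5C-C and 1.62 ± 0.35 (SE), adjusted p = 0.0026 in 5C-G. Aurka, which matures the spindle poles, rose by 2.19 ± 0.26 (SE), adjusted p = 2.4e-05 in 5C-C.

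Of the spindle checkpoint genes, 3 of 4 were called in 5C-C against 5C, and 0 of 4 by edgeR in 5C-G, 5C-E and 5C-F, where 2, 3 and 1 had an unadjusted p under 0.05. Bub1b encodes BUBR1, which binds and inhibits CDC20. Its FPKM was 1.35 and 1.30 with DMSO, 1.49 and 1.39 with 5C, 2.01 with 5C-S, 1.96 and 2.0 with 5C-G, 3.67 and 3.29 with 5C-C, 2.75 and 2.77 with 5C-E, and 1.17 and 1.66 with 5C-F. 5C-C was the highest and 5C-E the next, without overlap, and the log2 fold change was 1.44 ± 0.26 (SE), adjusted p = 0.00043 in 5C-C. Mad2l1, the other CDC20 inhibitor, was at 1.41 and 1.40 with DMSO, 1.68 and 1.91 with 5C, 2.03 with 5C-S, 1.95 and 1.45 with 5C-G, 2.98 and 3.07 with 5C-C, 1.79 and 1.78 with 5C-E, and 1.51 and 1.99 with 5C-F FPKM. Its range was narrow outside 5C-C, and it did not pass the fold in 5C-C (0.92 ± 0.21 (SE), adjusted p = 0.0032) while in 5C-G it had the lowest value of all members (0.04 ± 0.21 (SE), adjusted p = 0.93), whose sign turned with total counts as the scaling (-0.08) and without 5C A (-0.07) or 5C-G A (-0.09).

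Of the 4 genes that carry out anaphase, 3 were called in 5C-C, 3 in 5C-G and 1 in 5C-E. Cdc20, the activator of the anaphase-promoting complex, was at 2.59 and 2.77 with DMSO, 2.49 and 3.45 with 5C, 4.63 with 5C-S, 11.2 and 10.6 with 5C-G, 13.5 and 17.8 with 5C-C, 6.72 and 8.67 with 5C-E, and 2.34 and 3.44 with 5C-F FPKM. The order 5C-C, 5C-G, 5C-E ran without overlap between groups, and DMSO, 5C and 5C-F lay together at the bottom. It had the largest log2 fold change of any member in 5C-G, 2.01 ± 0.27 (SE), adjusted p = 6.8e-05, and reached 2.56 ± 0.28 (SE), adjusted p = 1.1e-05 in 5C-C and 1.30 ± 0.27 (SE), adjusted p = 0.012 in 5C-E, where leaving out 5C A (1.07) or 5C-E B (1.10) ended the call. Ube2c, its ubiquitin-conjugating enzyme, rose by 2.62 ± 0.32 (SE), adjusted p = 2.9e-05 in 5C-C.

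Pttg1 encodes securin, the inhibitor of separase, and had a high FPKM among the members. Its FPKM was 11.0 and 11.8 with DMSO, 11.3 and 10.6 with 5C, 15.3 with 5C-S, 14.1 and 13.9 with 5C-G, 10.8 and 18.3 with 5C-C, 10.1 and 9.29 with 5C-E, and 18.3 and 15.1 with 5C-F. Both 5C-F libraries were above those of 5C, whereas 5C-E was lowest and 5C-C A lay within the range of 5C. No call was made, with a log2 fold change of 0.59 ± 0.24 (SE), adjusted p = 0.062 in 5C-C, -0.24 ± 0.24 (SE), adjusted p = 0.71 in 5C-E and 0.71 ± 0.24 (SE), adjusted p = 0.063 in 5C-F. Espl1 encodes separase itself. Its FPKM was 0.993 and 1.05 with DMSO, 0.375 and 0.227 with 5C, 0.509 with 5C-S, 0.956 and 0.876 with 5C-G, 0.597 and 0.720 with 5C-C, 0.508 and 0.801 with 5C-E, and 0.348 and 0.419 with 5C-F. DMSO was the highest group, which held for no other member, 5C and 5C-F were the lowest without overlap with the rest, and 5C-G lay just under DMSO. Espl1 fell in 5C against DMSO by a log2 fold change of -1.84 ± 0.34 (SE), adjusted p = 0.0018, but without 5C B it was -1.54 and not called. It rose in 5C-G against 5C by 1.74 ± 0.34 (SE), adjusted p = 0.0014 and in 5C-C against 5C by 1.30 ± 0.34 (SE), adjusted p = 0.0061, the latter lost without 5C B (1.02).

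**Figure D3:**
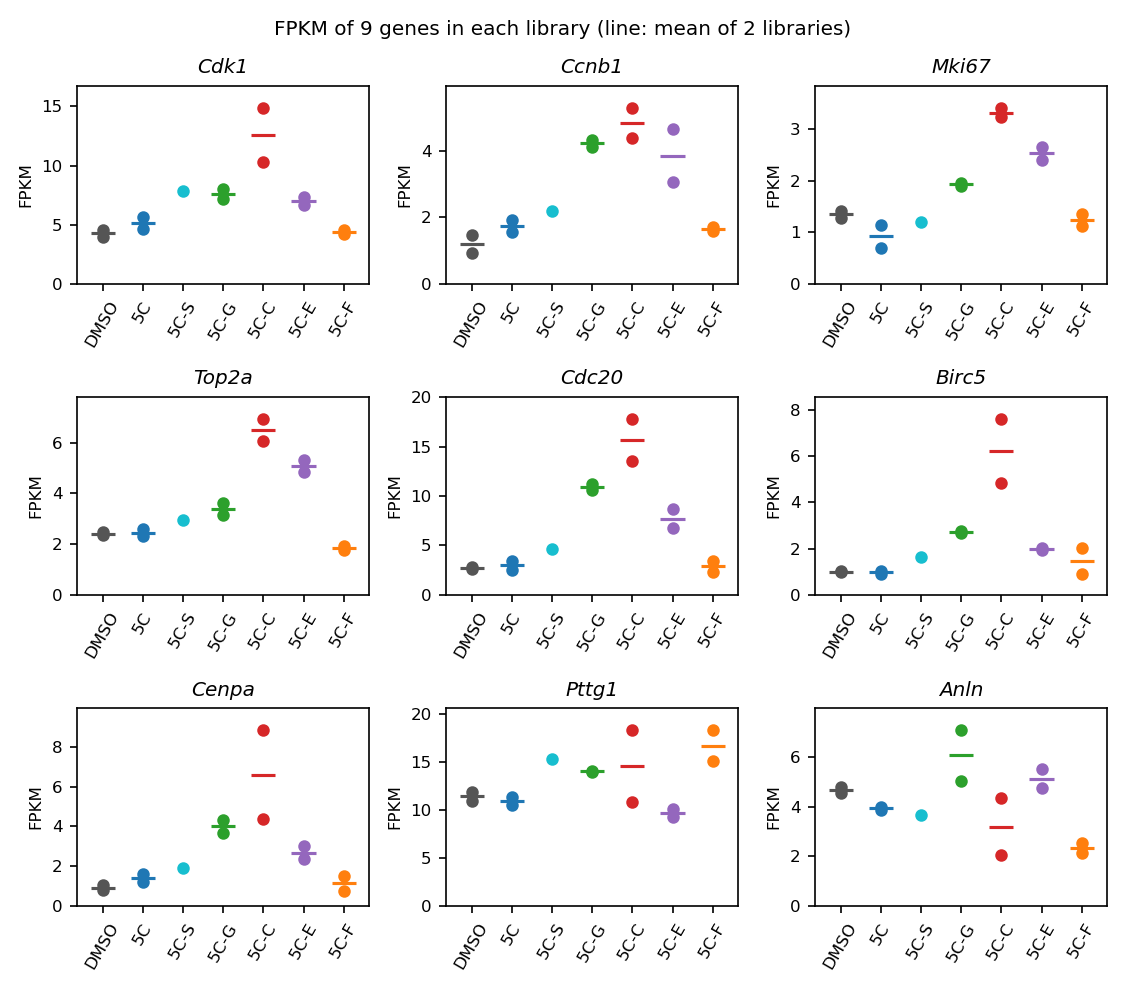
FPKM of 9 genes in each library, with a line at the mean of groups with 2 libraries. Cdk1, Ccnb1, Mki67, Top2a, Cdc20, Birc5 and Cenpa are highest in 5C-C, Pttg1 is highest in 5C-F on average, and Anln is lowest in 5C-F.

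All 6 centromere and kinetochore genes were called in 5C-C, and 2 of them (Cenpa and Kif2c) in 5C-G. Cenpa, the histone H3 variant that marks the centromere, was at 1.02 and 0.810 with DMSO, 1.60 and 1.17 with 5C, 1.92 with 5C-S, 3.67 and 4.33 with 5C-G, 4.37 and 8.86 with 5C-C, 2.33 and 2.99 with 5C-E, and 0.749 and 1.51 with 5C-F FPKM. The 5C-C libraries were far apart, with 5C-C A next to 5C-G B, yet 5C-C and 5C-G both lay above all libraries of 5C. The log2 fold change was 2.43 ± 0.36 (SE), adjusted p = 0.00011 in 5C-C and 1.68 ± 0.35 (SE), adjusted p = 0.0022 in 5C-G. Ndc80, the microtubule-binding core of the outer kinetochore, was at 0.210 and 0.415 with DMSO, 0.656 and 0.271 with 5C, 0.582 with 5C-S, 0.555 and 0.367 with 5C-G, 0.835 and 1.10 with 5C-C, 0.516 and 0.585 with 5C-E, and 0.481 and 0.355 with 5C-F FPKM. Its 5C libraries lay far apart, with 5C A above all libraries but those of 5C-C. The call in 5C-C, 1.24 ± 0.45 (SE), adjusted p = 0.041, was lost without 5C B (0.77) or 5C-C B (0.99). Kif2c, the kinesin that depolymerises wrongly attached microtubules, had the highest log2 fold change of the 37 members in 5C-C (2.85 ± 0.33 (SE), adjusted p = 2.3e-05) and in 5C-E (1.47 ± 0.32 (SE), adjusted p = 0.018). Its FPKM was 0.614 and 0.816 with DMSO, 0.574 and 0.664 with 5C, 1.46 with 5C-S, 1.62 and 2.65 with 5C-G, 3.96 and 4.03 with 5C-C, 1.64 and 1.96 with 5C-E, and 0.917 and 1.19 with 5C-F. The 5C-C libraries were the highest and both 5C libraries lay among the lowest with DMSO. The 5C-E call was lost without 5C A (1.35), 5C B (1.63) or 5C-E B (1.34).

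Of the spindle motors and microtubule proteins, 4 of 4 were called in 5C-C, and 2 of 4 (Kif4 and Hmmr) in each of 5C-G and 5C-E. Kif11, the motor that pushes the spindle poles apart, was at 0.670 and 0.611 with DMSO, 0.391 and 0.506 with 5C, 0.840 with 5C-S, 0.946 and 0.448 with 5C-G, 1.17 and 1.30 with 5C-C, 1.06 and 1.16 with 5C-E, and 0.592 and 0.600 with 5C-F FPKM. 5C-C and 5C-E lay above 5C without overlap, but 5C-G B fell between the 5C libraries. Its log2 fold change was 1.63 ± 0.33 (SE), adjusted p = 0.0012 in 5C-C. Hmmr, a spindle assembly factor that also binds hyaluronan, was at 1.12 and 1.03 with DMSO, 0.976 and 1.03 with 5C, 2.09 with 5C-S, 2.94 and 2.32 with 5C-G, 3.28 and 3.25 with 5C-C, 2.84 and 2.49 with 5C-E, and 0.475 and 0.907 with 5C-F FPKM. 5C-G, 5C-C and 5C-E stood together above DMSO and 5C, and 5C-F was the lowest group.

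Cytokinesis genes were divided, with 3 of 6 called in 5C-C (Kif20a, Kif23 and Racgap1), 1 in 5C-E and 0 by edgeR in 5C-G, where 4 had an unadjusted p under 0.05. Racgap1, which with the motor KIF23 forms the centralspindlin complex, was at 1.99 and 2.03 with DMSO, 2.53 and 2.99 with 5C, 3.75 with 5C-S, 3.38 and 3.96 with 5C-G, 6.63 and 5.14 with 5C-C, 4.03 and 4.0 with 5C-E, and 2.29 and 2.42 with 5C-F FPKM. Both 5C-C libraries were above all others, and it rose by 1.25 ± 0.21 (SE), adjusted p = 0.00025 in 5C-C. Kif20a, the central spindle motor MKLP2, was at 0.977 and 0.947 with DMSO, 1.54 and 1.10 with 5C, 2.15 with 5C-S, 2.60 and 2.0 with 5C-G, 3.62 and 1.84 with 5C-C, 3.25 and 3.86 with 5C-E, and 0.810 and 0.883 with 5C-F FPKM. 5C-C B lay below both 5C-G libraries and near 5C A, and 5C-E held the highest mean. The log2 fold change was 1.36 ± 0.31 (SE), adjusted p = 0.021 in 5C-E and 1.20 ± 0.31 (SE), adjusted p = 0.0055 in 5C-C. Without 5C-C A the latter was 0.69 and without 5C B 1.02, and neither was called, while the 5C-E call was lost without 5C A (1.60), 5C B (1.19) or 5C-E B (1.23). In GENCODE, 54.8% of its exon bases also lie in exons of Cdc23 on the other strand, and the use of strand in counting was not given in the sources used here.

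Prc1, which bundles the microtubules of the central spindle, was at 1.08 and 0.924 with DMSO, 0.974 and 1.06 with 5C, 1.10 with 5C-S, 1.69 and 1.05 with 5C-G, 1.88 and 1.06 with 5C-C, 1.91 and 1.85 with 5C-E, and 0.496 and 0.900 with 5C-F FPKM. 5C-C B lay with 5C and 5C-F A was the lowest, and no comparison with 5C gave a call (5C-C 0.68 ± 0.31 (SE), adjusted p = 0.1). Anln encodes anillin, the scaffold of the contractile ring. Its FPKM was 4.53 and 4.78 with DMSO, 4.0 and 3.86 with 5C, 3.66 with 5C-S, 7.09 and 5.05 with 5C-G, 4.34 and 2.03 with 5C-C, 5.52 and 4.73 with 5C-E, and 2.54 and 2.11 with 5C-F. 5C-G had the highest mean, 5C-C A and B lay on either side of 5C, and 5C-F was below 5C. Anln had the lowest log2 fold change of all members in 5C-C against 5C, -0.15 ± 0.26 (SE), adjusted p = 0.69, and its sign turned without 5C-C B (0.28) and under the offset for GC content and gene length described below (0.57). Ect2, the exchange factor that switches on RhoA at the division site, was likewise not called in 5C-C (0.19 ± 0.28 (SE), adjusted p = 0.64). Prc1, Anln, Ect2, Mad2l1 and Pttg1 were the 5 members called in none of 5C-C, 5C-G and 5C-E against 5C, whereas 9 members (Ccnb1, Plk1, Aurka, Tpx2, Cdc20, Kif2c, Kif4, Hmmr and Mki67) were called in all of these comparisons, which share the 5C libraries.

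Both genes of the mitotic chromosome group followed the main pattern. Mki67, the surfactant of mitotic chromosomes known as the Ki-67 antigen, was at 1.28 and 1.41 with DMSO, 1.14 and 0.699 with 5C, 1.20 with 5C-S, 1.89 and 1.96 with 5C-G, 3.23 and 3.41 with 5C-C, 2.64 and 2.41 with 5C-E, and 1.12 and 1.36 with 5C-F FPKM. 5C-C, 5C-E and 5C-G ranked in that order with no overlap, and 5C B was the lowest library. The log2 fold change was 2.02 ± 0.24 (SE), adjusted p = 2.7e-05 in 5C-C, 1.39 ± 0.24 (SE), adjusted p = 0.0025 in 5C-E and 1.20 ± 0.24 (SE), adjusted p = 0.0015 in 5C-G. Without 5C B, the value was 1.12 in 5C-E and 0.86 in 5C-G, neither of them called. Top2a, the topoisomerase that untangles sister chromatids, was at 2.36 and 2.47 with DMSO, 2.61 and 2.31 with 5C, 2.97 with 5C-S, 3.60 and 3.17 with 5C-G, 6.94 and 6.07 with 5C-C, 4.86 and 5.32 with 5C-E, and 1.76 and 1.93 with 5C-F FPKM. The libraries of a group lay close together, and 5C-C, 5C-E and 5C-G ranked as for Mki67. Top2a rose by 1.57 ± 0.18 (SE), adjusted p = 1.7e-05 in 5C-C, and in 5C-E its 0.98 ± 0.18 (SE), adjusted p = 0.0039 fell just short of the fold.

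**Figure D4:**
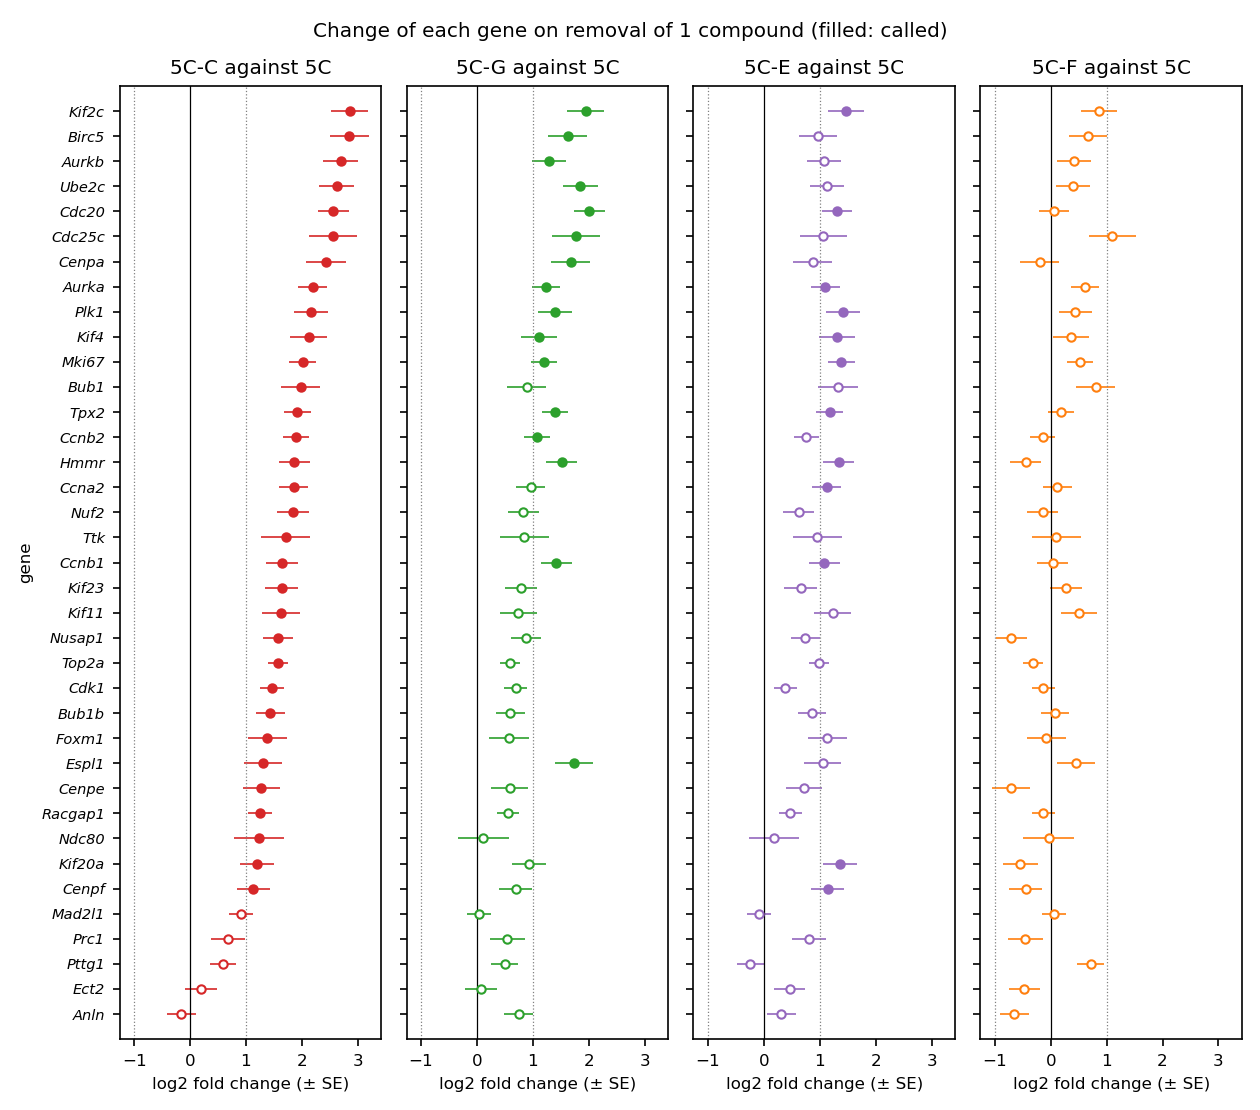
Log2 fold change (± SE) of the 37 genes in 5C-C, 5C-G, 5C-E and 5C-F against 5C, ordered by the value in 5C-C, with filled points for called genes and dotted lines at log2 fold changes of -1 and 1. In 5C-C 32 points are filled, in 5C-G 16, in 5C-E 12 and in 5C-F 0.

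Without forskolin no member was called in either direction. The extremes in 5C-F against 5C were Cdc25c at 1.10 ± 0.42 (SE), adjusted p = 0.1 and Cenpe, the kinesin that carries chromosomes to the spindle equator, at -0.71 ± 0.34 (SE), adjusted p = 0.19. The FPKM of Cenpe was 0.606 and 0.614 with DMSO, 0.653 and 0.744 with 5C, 0.768 with 5C-S, 0.999 and 0.921 with 5C-G, 0.978 and 2.01 with 5C-C, 1.42 and 0.991 with 5C-E, and 0.384 and 0.414 with 5C-F. Both 5C-F libraries were the lowest of all, and the 5C-C libraries were far apart. The median moved from -0.11 without 5C-F B to 0.20 without 5C-F A, and 26 of 37 members were higher in 5C-F B than in 5C-F A.

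For the single 5C-S library no spread of its own could be measured, so its values come first without a test. Relative to the mean of 5C, the median log2 ratio of normalised counts was 0.47 over the members and 0.00 over all genes. Of the 37, 31 lay above both 5C libraries and 3 (Ect2, Cenpf and Anln) below both, against 39.3% and 36.6% of all genes. A ratio beyond 1 was reached by 3 members, Kif2c (1.21), Ttk (1.07) and Hmmr (1.04), and a ratio below -1 by 0, against 8.10% and 7.35% of all genes. In an edgeR test added after seeing the data, which took the spread from the groups with 2 libraries, 0 members were called, as were 0% of all genes in either direction, and 6 members had an unadjusted p under 0.05. The lowest adjusted p of a member was 0.58, so that a difference of 5C-S from 5C was not detectable with 1 library.

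Against DMSO the same 3 groups stood out. In 5C-C, 31 of 37 members were called higher (10.4% of all genes) with a median log2 fold change of 1.63, and the extremes were Cdc25c at 3.02 ± 0.44 (SE), adjusted p = 7.4e-05 and Espl1 at -0.54 ± 0.33 (SE), adjusted p = 0.21. In 5C-G, 14 were called higher (3.11% of all genes) with a median of 0.82, from Cdc25c at 2.23 ± 0.43 (SE), adjusted p = 0.0053 to Espl1 at -0.10 ± 0.32 (SE), adjusted p = 0.89. In 5C-E, 13 were called higher (2.41% of all genes) with a median of 0.85, from Kif20a at 1.74 ± 0.31 (SE), adjusted p = 0.0011 to Espl1 at -0.79 ± 0.33 (SE), adjusted p = 0.19. In 5C-F, 1 was called higher and 1 lower (3.18% and 4.22% of all genes), namely Cdc25c at 1.56 ± 0.43 (SE), adjusted p = 0.023 and Espl1 at -1.39 ± 0.33 (SE), adjusted p = 0.0097. Both calls were lost without DMSO A, DMSO B or 5C-F A. Without DMSO A, 5 members were called in 5C-G and 5 in 5C-E, and without DMSO B, 7 and 3. Without 5C-G B 8 were called in 5C-G, and without 5C-E A and B 8 and 5 in 5C-E.

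Direct comparisons placed 5C-C above the other removals. Against 5C-E, 11 of 37 members were called higher in 5C-C and 0 lower (6.33% of all genes higher), led by Birc5 at 1.89 ± 0.34 (SE), adjusted p = 0.00092, with Anln lowest at -0.47 ± 0.26 (SE), adjusted p = 0.2. Aurkb, Birc5 and Cdc20 kept their calls whichever library was left out, while 7 members were called without 5C-C B and 6 without 5C-E A. Against 5C-G, 5 were called higher in 5C-C and 0 lower (3.21% of all genes higher), namely Aurkb at 1.40 ± 0.30 (SE), adjusted p = 0.0046, Birc5 at 1.23 ± 0.33 (SE), adjusted p = 0.022, Bub1 at 1.09 ± 0.34 (SE), adjusted p = 0.048, Kif4 at 1.01 ± 0.31 (SE), adjusted p = 0.045 and Nuf2 at 1.01 ± 0.28 (SE), adjusted p = 0.022. Anln was lowest there, at -0.90 ± 0.26 (SE), adjusted p = 0.03. Without 5C-G A there were 2 calls, of Mad2l1 and Kif11, and without 5C-C B also 2, of Aurkb and Top2a. Without 5C-C A 9 members were called higher and Anln lower. Thus 0 of the 5 kept the call whichever library was left out, while the log2 fold change was positive for 35 of 37. Between 5C-E and 5C-G edgeR called 0 members (against 4.12% of all genes higher and 5.19% lower), and 5 had an unadjusted p under 0.05. The values ran from Cenpa at -0.80 ± 0.34 (SE), adjusted p = 0.11 to Foxm1 at 0.56 ± 0.35 (SE), adjusted p = 0.28, and Pttg1, at -0.74 ± 0.24 (SE), adjusted p = 0.038, passed the p threshold without the fold. Leaving out 5C-G A gave 1 call. Against 5C-F, 31 members were called higher in 5C-C (4.92% of all genes), 14 in 5C-G (3.76%) and 12 in 5C-E (4.29%), with 0 lower in each. Cenpa (2.63 ± 0.36 (SE), adjusted p = 8.5e-05), Hmmr (1.96 ± 0.28 (SE), adjusted p = 0.00015) and Kif20a (1.90 ± 0.31 (SE), adjusted p = 0.00046) led these, and Pttg1 was the lowest in all of them (-0.12 ± 0.23, -0.22 ± 0.23 and -0.96 ± 0.24 (SE)). Without 5C-F A the counts of 5C-G and 5C-E fell to 8 and 6.

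Other gene lists of the cell cycle, which share no gene with the 37, were counted in the same way. Of 40 other mitosis genes, 20 were called higher and 0 lower in 5C-C against 5C (median 1.15), led by Cdca3 at 3.43 ± 0.36 (SE), adjusted p = 9.5e-06, a trigger of mitotic entry, and Kif22 at 2.97 ± 0.30 (SE), adjusted p = 6.9e-06, a chromosome arm motor. In 5C-G 12 were called, in 5C-E 3 (Cdca3, Kif22 and Dlgap5) and in 5C-F 0, where 11 had an unadjusted p under 0.05. Of 30 DNA replication genes, 15 were called higher and 1 lower in 5C-C (median 1.10), with Tk1 (thymidine kinase) at 2.92 ± 0.32 (SE), adjusted p = 1.4e-05, Gins2 (part of the replicative helicase) at 2.19 ± 0.35 (SE), adjusted p = 0.00021 and Pola1 (DNA polymerase alpha) at -1.02 ± 0.32 (SE), adjusted p = 0.02. Of these 30, 3 were called higher in 5C-G (Tk1, Gins2 and Mcm5), 1 in 5C-E (Rrm2) and 2 in 5C-F (Gins1 and Tk1), beside 7.47%, 0.654% and 2.69% of all genes. In 5C against DMSO 0 of the other mitosis genes were called (6 had an unadjusted p under 0.05), and of the replication genes only Prim1, the primase subunit, was called, at 1.20 ± 0.34 (SE), adjusted p = 0.046.

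The list of regulators holds both activators and repressors of these genes, so its genes have no single direction in common. Of 16 measured MuvB, MYB and E2F genes, Mybl2, which encodes B-MYB, was called higher in 5C-C against 5C at 1.98 ± 0.53 (SE), adjusted p = 0.0075, and 3 were called lower, led by Rbl2 at -1.50 ± 0.32 (SE), adjusted p = 0.0016, the p130 protein of the repressive DREAM complex, and Lin52 at -1.09 ± 0.33 (SE), adjusted p = 0.015, a MuvB subunit. In 5C-G, 5C-E and 5C-F against 5C and in 5C against DMSO, edgeR called 0 of 16, with 6, 0, 5 and 2 at an unadjusted p under 0.05. Of 13 G1 cyclins, kinases and CDK inhibitors, 3 were called higher and 2 lower in 5C-C. The CDK4 inhibitor Cdkn2d was at 1.59 ± 0.29 (SE), adjusted p = 0.00049, Cdk4 itself at 1.21 ± 0.21 (SE), adjusted p = 0.00036, Ccnd2 (cyclin D2) at -1.14 ± 0.22 (SE), adjusted p = 0.00088 and Cdkn1b (p27) at -1.07 ± 0.27 (SE), adjusted p = 0.0049. In 5C-G 4 were called higher and 0 lower, all of them CDK inhibitors of the INK4 family, with Cdkn2a at 2.19 ± 0.31 (SE), adjusted p = 8.8e-05, Cdkn2d at 1.45 ± 0.29 (SE), adjusted p = 0.0016, Cdkn2c at 1.12 ± 0.20 (SE), adjusted p = 0.00089 and Cdkn2b at 1.08 ± 0.16 (SE), adjusted p = 0.00017. In 5C-E and 5C-F edgeR called 0 of 13, with 3 and 4 at an unadjusted p under 0.05. In 5C against DMSO, Cdkn1c (p57) was called higher at 1.30 ± 0.24 (SE), adjusted p = 0.0018 and Cdkn2a lower at -1.12 ± 0.30 (SE), adjusted p = 0.029. The last list held 10 genes, some of them brakes on mitotic entry and others genes of mitotic exit. Of these, 2 were called higher and 1 lower in 5C-C (9.65% and 10.5% of all genes). Higher was Pkmyt1 (a kinase that inhibits CDK1) at 2.12 ± 0.35 (SE), adjusted p = 0.00026. Gadd45a (a stress-induced checkpoint gene) was also higher, at 1.00 ± 0.21 (SE), adjusted p = 0.0013. Lower was the phosphatase Cdc14b at -1.18 ± 0.30 (SE), adjusted p = 0.0052. Pkmyt1 and Gadd45a were also the 2 genes of this list called in 5C-G, at 1.13 ± 0.35 (SE), adjusted p = 0.023 and 1.10 ± 0.21 (SE), adjusted p = 0.0011. In 5C-F, Pkmyt1 was the only gene of this list called (adjusted p = 0.013 by edgeR).

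**Figure D5:**
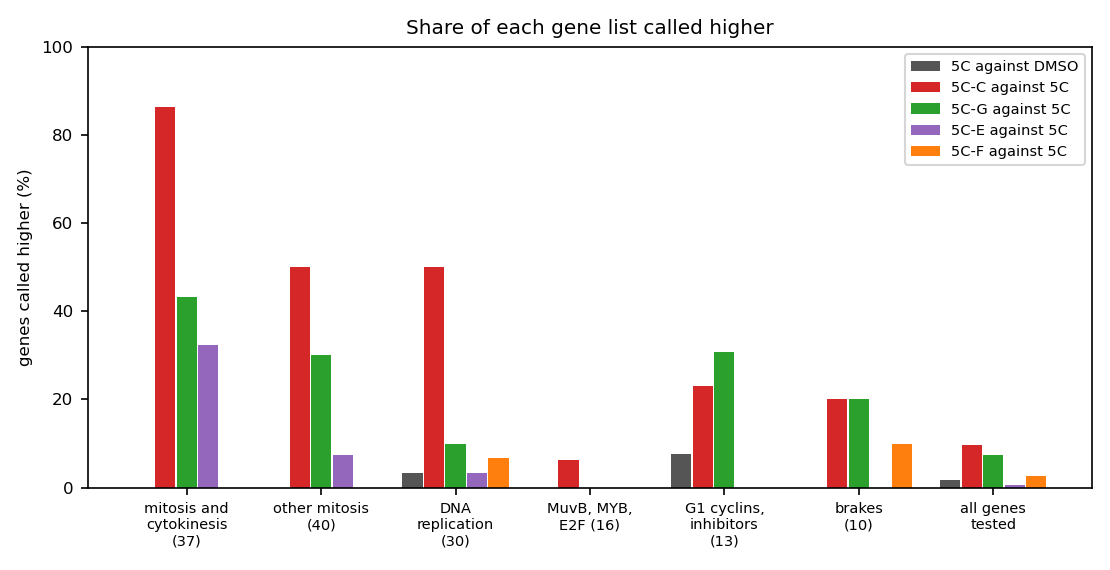
Percentage of each gene list called higher in 5C against DMSO and in the 4 tested removals against 5C, with the same percentage over all genes tested at the right. For the 37 mitosis and cytokinesis genes the bars stand at 86.5% in 5C-C, 43.2% in 5C-G and 32.4% in 5C-E, and at 0 in the other 2 comparisons.

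Calls were also counted by the CHR in the promoter window, with no test of the difference. In 5C-C against 5C, 21 of the 24 genes with a CHR were called (median log2 fold change 1.67), 5 of the 7 without (1.57) and 6 of the 6 with no window (1.89). In 5C-G the counts were 11 of 24 (0.86), 2 of 7 (0.83) and 3 of 6 (1.12), and in 5C-E 8 of 24 (1.02), 1 of 7 (0.72) and 3 of 6 (1.13). The share called was lower without a CHR in all 3 comparisons, but that set held only 7 genes. The 3 comparisons also share the same genes and the 5C libraries, so no difference by CHR can be read from these counts. Among the genes without a CHR were Ccnb1, Birc5, Mad2l1 and Pttg1, whose log2 fold changes in 5C-C against 5C ran from 0.59 to 2.85. A CHR was also found in 22 of 33 other mitosis genes (66.7%) and 6 of 14 MuvB, MYB and E2F genes (42.9%). It was found in 6 of 24 DNA replication genes (25.0%), 1 of 10 genes of the G1 list (10%) and 1 of 7 of the last list (14.3%). CCAAT was found in 75.8%, 57.1%, 66.7%, 60% and 100% of these lists in the same order.

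GC content and length of genes can bias counts between libraries. The members' median GC content was 47.0% (range 40.7% to 56.2%) against 49.9% for all tested genes, and their median exon length 3418 bases against 2794. When every library had an offset for GC content and length, 33 members were called higher in 5C-C against 5C, including all 32 of the calls made without it, 23 in 5C-G (13 of the 16) and 17 in 5C-E (all 12), and the medians were 2.05, 1.13 and 1.09. The offset ended the calls of Ccnb2, Plk1 and Aurkb in 5C-G (0.92 for Plk1 and 0.94 for Aurkb). In 5C-F and in 5C against DMSO the offset left 0 and 1 calls. For 19 of the 37 members some exon bases overlap exons of another gene, Cdc25c, Aurka and Ccna2 among them, and their counts are less certain where reads were not assigned by strand.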

How the data were processed

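RNA of dHeps in 7 groups was sequenced with a NEBNext Ultra library kit. For all 13 libraries the authors deposited gene counts in 1 table and FPKM in another, with 0 columns left unused. The submitters' processing notes name featureCounts, Subread and DESeq2 and the build GRCm39, while the aligner and the use of strand were not given in the sources used here. The deposited FPKM are scaled for gene length and depth and served for levels, and the deposited counts served for the tests. Columns were assigned to groups by name, their running numbers matched no replicate label, and A and B pair nothing across groups.

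Counts were fitted with edgeR 4.0.16 in R 4.3.3 (TMM, filterByExpr with a minimum count of 10, quasi-likelihood test, all 13 libraries in 1 fit), with Benjamini-Hochberg adjustment over 19884 genes. Calls needed an adjusted p under 0.05 and a log2 fold change beyond 1. The study's methods name DESeq, for which edgeR was used instead. Alternatives were DESeq2 1.42.0, limma 3.58.1 on log2(FPKM + 1), total counts as scaling, no filter, a fold of 0.5, only the 2 groups compared, an offset for GC content and length, and each library left out. Tested on simulated data for 5C-C against 5C with 18778 genes, the fit called 42 of 100 genes changed 2-fold and 89 of 100 changed 4-fold. A 2-fold change lies on the fold threshold itself, so the first count is limited by the calling rule and does not measure sensitivity alone. Depth was 30195867 to 45491932 counts, and the floor of 3 counts covers counting error only. The members and gene lists were chosen with earlier results of these data known. Values per library were given for 20 members set by symbol for their role and for the highest and lowest member of each comparison, and from other lists up to 2 called genes per direction were named. Ube2c, Aurka, Ect2, Bub1, Nuf2, Kif4 and the genes of other lists called in 5C-G, 5C-E and 5C-F were named after their values were seen.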

Additional observations from a re-analysis of the deposited data

How the results depend on the processing

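The counts of higher members in 5C-C, 5C-G and 5C-E against 5C kept their direction under every alternative run, but their size did not, and the cause was not tested except where named. With limma on log2(FPKM + 1), a scale that understates changes of low genes, the counts against 5C were 17 in 5C-C, 3 in 5C-G and 2 in 5C-E (medians 0.92, 0.49 and 0.62), those against DMSO were 18, 5 and 4 (medians 0.96, 0.46 and 0.59), and 0 in 5C-F and 5C. The offset for GC content and length gave medians of 2.05 and 1.13 in 5C-C and 5C-G against 5C and of 2.00 and 0.96 against DMSO, and counts of 10 in 5C-C against 5C-G and 1 in 5C-E against 5C-G. Total counts as scaling gave medians of 1.48 in 5C-C against 5C and 0.997 in 5C-E against DMSO, where the median of all genes moved to -0.147 and 0.156. A fold of 0.5 gave 2 calls in 5C against DMSO. An unadjusted p gave 19 calls in 5C-E and 1 in 5C-F against 5C, and a fit of only the 2 groups gave 1 call in 5C-F against DMSO. For 5C-S against 5C, where 3 members lay beyond the fold without a test, the edgeR test added after seeing the data called 0. With single libraries left out, which leaves that group 1 library and the spread of the others, counts ran from 0 to 1 in 5C against DMSO, 1 to 10 in 5C-E against 5C, 5 to 16, 3 to 8 and 0 to 3 in 5C-G, 5C-E and 5C-F against DMSO, 6 to 15 in 5C-C against 5C-E, 2 to 10 in 5C-C and 0 to 1 in 5C-E against 5C-G, and 8 to 15 and 6 to 16 in 5C-G and 5C-E against 5C-F. Medians ran from 1.62 to 1.82, 0.87 to 1.08 and -0.11 to 0.20 in 5C-C, 5C-E and 5C-F against 5C, and from 0.83 to 0.99 and -0.11 to 0.13 in 5C-E and 5C-F against DMSO. Signs turned for Mad2l1 in 5C-G against 5C (-0.084 with total counts, -0.019 with no filter, -0.058 with limma, -0.089 to 0.156 with a library left out), Anln in 5C-C against 5C (0.575 with the offset, -0.743 to 0.278 with a library left out) and against 5C-E (0.13 with the offset), Espl1 in 5C-G against DMSO (0.16 with the offset), and Pttg1 in 5C-C against 5C-F (-0.59 to 0.238 with a library left out). For single members, 551 of the other values kept direction and call, 71 lost the call and 12 gained it. No paired analysis was possible because the running numbers of the columns match no replicate number in the labels. With 2 libraries a group, a missed threshold does not show that a gene did not change.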
